A study of Mus musculus with 11 samples.

Results

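CBX6 is a Polycomb protein of mouse embryonic stem cells (ESCs), and CBX7 and RING1B are other Polycomb proteins of these cells. The regions described here are the CBX6 peaks of the second anti-HA ChIP-seq replicate that lay apart from both. They were chosen by measured peaks: a region is a peak of CBX6 replicate 2 that shared 0 bp with every CBX7 peak and every RING1B peak. Of 5103 CBX6 replicate 2 peaks, 903 met this rule and 4200 did not. Of the 4200, 3666 shared bases with peaks of both proteins, 395 with CBX7 only and 139 with RING1B only. The first anti-HA replicate took no part in the choice, and 500 of the 903 regions had a CBX6 replicate 1 peak while 403 had none.

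The cells were E14Tg2A, a laboratory line of mouse ESCs grown without feeders in serum and leukemia inhibitory factor. For CBX6, the ChIP-seq used an anti-HA antibody in ESCs edited by CRISPR-Cas9 so that the endogenous protein ended in a triple HA tag, in 2 replicates. CBX7 and RING1B were each assayed once with antibodies to the proteins themselves. An anti-HA ChIP-seq in untagged cells was not analysed here and the control of each peak call is not given in the sources used here, so peaks that anti-HA may give without the tag could not be removed from the regions. RNA-seq was done on ESCs with a control short hairpin RNA (shCtl, 2 libraries) and with shRNA against Cbx6 (shCbx6, 2 libraries), delivered by lentivirus. The paper describes 2 shRNAs against Cbx6, and the labels do not say which was used in each shCbx6 library. The labels do not say whether the 2 libraries of a group came from separate cultures, so p-values measure only the spread between these samples, which may be technical. The lists held 21865 peaks for CBX6 replicate 1, 5081 for CBX7 and 4180 for RING1B, so 36229 in all, and the depth behind the peak lists and the FPKM table is unknown. Coordinates are on mm9.

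Polycomb repressive complex 1 (PRC1) is built around RING1A or RING1B, enzymes that attach ubiquitin to histone H2A. Canonical PRC1 also holds a CBX protein. CBX7 is the main CBX protein of ESCs, and its chromodomain can bind the trimethylated H3K27 laid down by PRC2. The paper reports that CBX6 reaches chromatin without need of this mark and is associated with both canonical and noncanonical PRC1. PRC1 and PRC2 are known for sitting on CpG islands of silent developmental genes. CpG islands are stretches, often at transcription starts, in which the CG dinucleotide has not been depleted as in the rest of the mammalian genome.

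Sequences of regions with and without a replicate 1 peak show how much single regions vary in CpG content. The first set holds the central 200 bases of the 4 regions with a replicate 1 peak that lay at a start of the most highly expressed protein-coding genes, leaving out windows with annotated untranslated bases. CG dinucleotides are in capitals.
Rps2, chr17:24856678-24856877 (+ strand): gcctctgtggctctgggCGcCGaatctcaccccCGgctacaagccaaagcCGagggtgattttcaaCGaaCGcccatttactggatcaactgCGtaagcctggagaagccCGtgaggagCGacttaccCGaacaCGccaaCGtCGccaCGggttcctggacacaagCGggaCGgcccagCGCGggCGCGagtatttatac
Tuba1b, chr15:98764187-98764386 (+ strand): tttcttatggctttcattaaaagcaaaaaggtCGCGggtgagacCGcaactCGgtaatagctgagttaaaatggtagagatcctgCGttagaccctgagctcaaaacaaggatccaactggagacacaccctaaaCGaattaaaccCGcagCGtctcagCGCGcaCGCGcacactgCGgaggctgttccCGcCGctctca
Gpx4, chr10:79514315-79514514 (+ strand): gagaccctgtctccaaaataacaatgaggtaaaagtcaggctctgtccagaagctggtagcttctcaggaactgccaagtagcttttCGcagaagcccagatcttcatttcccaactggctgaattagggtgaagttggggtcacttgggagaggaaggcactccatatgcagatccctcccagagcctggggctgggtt
Vdac1, chr11:52175227-52175426 (+ strand): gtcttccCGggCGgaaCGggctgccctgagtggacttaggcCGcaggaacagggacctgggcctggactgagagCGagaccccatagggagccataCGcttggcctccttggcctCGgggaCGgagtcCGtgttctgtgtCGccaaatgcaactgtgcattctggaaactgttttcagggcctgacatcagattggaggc
These windows held 20 CG dinucleotides at Rps2, a ribosomal protein gene, 15 at Tuba1b, an alpha-tubulin gene, 10 at Vdac1, a mitochondrial outer membrane channel gene, and 1 at Gpx4, a glutathione peroxidase gene. The second set holds the same span of 4 regions without a replicate 1 peak that lay away from any start. They passed the same limit on untranslated bases and were the highest-scoring among regions whose sequence could be printed, as given with the processing. Their scores were 186.5, 170.7, 159.2 and 154.6, and regions of this class with scores of 210.8 and 163.1 were not eligible. Each is named by the nearest protein-coding gene.
1700029F12Rik, chr13:97778553-97778752 (+ strand): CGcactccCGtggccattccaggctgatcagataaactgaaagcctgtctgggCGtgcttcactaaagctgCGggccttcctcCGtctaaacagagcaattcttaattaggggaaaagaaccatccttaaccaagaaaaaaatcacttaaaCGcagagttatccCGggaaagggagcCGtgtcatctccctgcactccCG
Tbx15, chr3:99063756-99063955 (+ strand): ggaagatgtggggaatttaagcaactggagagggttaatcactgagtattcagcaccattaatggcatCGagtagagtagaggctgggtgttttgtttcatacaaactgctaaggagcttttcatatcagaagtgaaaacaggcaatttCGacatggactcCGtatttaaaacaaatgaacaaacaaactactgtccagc
Psmd7, chr8:110348429-110348628 (+ strand): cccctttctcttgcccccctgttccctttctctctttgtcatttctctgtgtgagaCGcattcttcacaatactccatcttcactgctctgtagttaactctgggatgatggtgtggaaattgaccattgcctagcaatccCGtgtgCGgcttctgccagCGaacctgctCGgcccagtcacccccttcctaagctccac
Sp8, chr12:120078809-120079008 (+ strand): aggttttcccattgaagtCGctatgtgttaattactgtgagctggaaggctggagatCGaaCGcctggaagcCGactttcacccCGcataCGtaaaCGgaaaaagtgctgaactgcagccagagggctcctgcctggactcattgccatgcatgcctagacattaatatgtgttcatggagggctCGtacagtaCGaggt
These held 9, 3, 5 and 9 CG dinucleotides in that order. The first set thus ranged widely, with Gpx4, whose region lay 1463 bp from the start, below every window of the second set.

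CBX6 replicate 2 scores in the regions were low. The deposited score is the MACS value of a peak, which grows as the pile-up becomes less likely under the background model, and the lowest score in the list was 50. It was the readout that placed a peak in the list, so it is given as a description. The regions had a median score of 63.0 (quartiles 54.3 and 80.1) and a median width of 831 bp, and the other CBX6 replicate 2 peaks a median score of 213.6 and a width of 1716 bp. A score of at least 100 was reached by 107 of 903 regions (11.8%) and by 3165 of 4200 other peaks (75.4%). Regions with a replicate 1 peak scored much like those without it, with medians of 65.0 and 60.4.

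**Figure D1:**
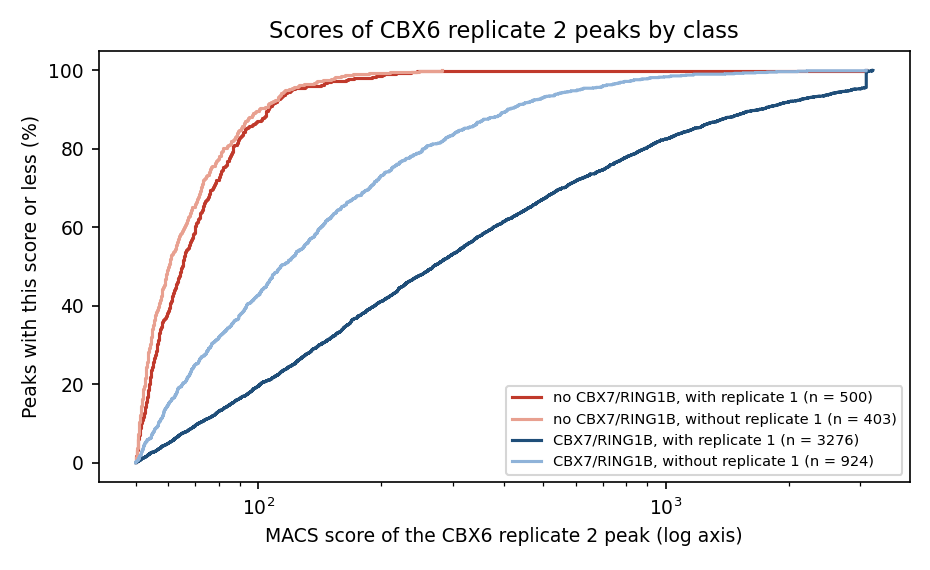
Cumulative share of CBX6 replicate 2 peaks (vertical axis, %) against their MACS score (horizontal axis, log scale) in 4 classes, by presence of a CBX7 or RING1B peak and of a CBX6 replicate 1 peak. Both red curves, the regions, rise steeply just above the lowest score of 50 and have medians of 65.0 and 60.4, while the dark blue curve, peaks shared with CBX7 or RING1B and replicate 1, has a median of 268.6.

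Replicate 1 gives a readout that the choice of regions did not use. A replicate 1 peak lay on 55.4% of the regions (500 of 903, 95% Wilson interval 52.1 to 58.6) and on 78.0% of the other replicate 2 peaks (3276 of 4200, 76.7 to 79.2), a difference of 22.6 points (interval of the difference -26.1 to -19.2, regions minus others). Such intervals cover counting error over regions only, since each list comes from 1 library. The gap was smaller in the lower of 3 score bands. At scores of 50 to under 60 the share was 49.2% (44.3 to 54.2) in the regions and 54.6% (48.9 to 60.2) in the others, and at 60 to under 100 it was 59.8% (55.0 to 64.5) and 64.7% (61.2 to 68.1). In both of these bands the intervals overlapped. In the highest band, 100 or more, the gap was as wide as overall. There the shares were 60.7% (51.3 to 69.5) and 83.3% (82.0 to 84.6), which did not overlap, although the other peaks reach far higher scores within this open band.

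The replicate 1 peaks on the regions scored above the middle of that list. Their median score was 118.9 (quartiles 79.9 and 183.1, n = 500), beside 95.3 for all 21865 replicate 1 peaks and 150 for those on the other replicate 2 peaks.

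Among the 6 highest-scoring regions with a replicate 1 peak, the first was not nuclear. It covered chrM:1-6530, had a replicate 2 score of 3100 and a replicate 1 score of 377.4, and lay over the mitochondrial genome at mt-Nd1, a subunit gene of respiratory complex I. Mitochondrial DNA carries no histones. The next had far lower scores. They lay at chr10:28863187-28864803 over a start of the predicted gene Gm9996 (score 245.3), at chr4:141091439-141093579 in an intron 589 bp from a start of Spen, a transcriptional corepressor gene (236.9), at chr7:56933145-56934758 between genes 40926 bp from Dbx1, a homeobox gene (217.4), at chr17:87929984-87931880 between genes 83709 bp from Calm2, a calmodulin gene (205.4), and at chr6:21935513-21937376 over a start of A430107O13Rik (203.7). Their replicate 1 scores were between 83.9 and 134.7, so the order of replicate 2 was not that of replicate 1.

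The 6 highest-scoring regions without a replicate 1 peak included 2 at starts. The first, chr7:116756996-116758356, lay in an intron 1726 bp from a start of St5 (score 282.4). The second, chr16:42339524-42340860, covered a start of Gap43, a gene of growing axons (248.5). The others lay 7695 bp from a start of Wnt8a, a WNT ligand gene (210.8), 25264 bp from 1700029F12Rik (186.5), 5564 bp from a start of Tbx15, a T-box factor gene (170.7), and 9278 bp from a start of Smad4, the common mediator of TGF-beta and BMP signals (163.1). The Tbx15 and Smad4 regions were intronic and the Wnt8a and 1700029F12Rik regions between genes. Of these 6 the Tbx15 region lay closest to a CBX7 or RING1B peak, at 221 bp.

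The regions were mostly far from the peaks that defined them by absence. The median distance to the nearest CBX7 or RING1B peak was 94004 bp (quartiles 22754 and 224859, n = 902 nuclear regions). Of the 903 regions, 65 (7.2%) lay within 1000 bp of such a peak, 123 (13.6%) within 5000 bp and 471 (52.2%) within 100 kb. At the edge of the rule, the closest region, chr8:86399494-86400781, 23223 bp from a start of Lphn1, an adhesion receptor gene, lay 17 bp from a CBX7 or RING1B peak, and the next lay 29 bp away near Zic5, a zinc finger gene, and 37 bp away near Zfyve16. Just outside the rule, the smallest overlaps were 3 bp near Zfp422, 8 bp near Insm1 and 9 bp near Park7. The farthest region, on chromosome X, was 5304456 bp away. Another region lay within 10000 bp of 59 regions.

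Chromosome X carried few regions. It held 7 of the 903, 0.042 per Mb, beside 0.362 per Mb of the autosomes. The other replicate 2 peaks numbered 0.516 per Mb on chromosome X and 1.66 on autosomes, and the replicate 1 peaks 0.318 and 8.82 per Mb, so the X was low in each CBX6 list.

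Position relative to genes split the regions by replicate 1. A start of an annotated transcript lay within 2500 bp of 502 of 903 regions (55.6%, 52.3 to 58.8), and of 3364 of 4200 other peaks (80.1%, 78.9 to 81.3), a difference of -24.5 points (-28.0 to -21.1). With a replicate 1 peak it was 71.0% (355 of 500), and without it 36.5% (147 of 403), a difference of 34.5 points (28.2 to 40.5). The regions stayed below the other replicate 2 peaks in either class, at 84.5% with and 64.6% without replicate 1. The same held in each score band, where the share near a start was 49.2%, 60.6% and 59.8% in the regions and 74.9%, 80.0% and 80.6% in the others, from the lowest band to the highest, with no overlap of intervals.

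Read the other way, replicate 1 had a peak on 70.7% of the regions near a start and on 36.2% of those away from any start. Regions were centred mainly in introns (411 of 903, 45.5%) and between genes (346, 38.3%), with 76 in untranslated regions, 53 in coding exons and 17 in exons of noncoding genes. Coding exons held 5.9% of region centres and 15.2% of the centres of other replicate 2 peaks. A start lay inside 256 regions (28.4%) and inside 60.4% of the other peaks, which are wider.

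Near protein-coding starts the regions sat slightly downstream. Of 340 regions with a replicate 1 peak near such a start, 220 were centred downstream of it, with a median offset of 231 bp in the direction of the gene (quartiles -148.2 and 498.5). Of 130 without replicate 1, 80 were downstream, with a median of 205.5 bp (quartiles -329.2 and 586.2). Starts on both strands, as at divergent gene pairs, lay within 2500 bp of 61 of 470 regions near a protein-coding start (13.0%, 10.2 to 16.3) and of 165 of 3212 other peaks (5.1%, 4.4 to 6.0), a difference of 7.8 points (5.0 to 11.3). The excess was seen with replicate 1, at 15.0% of regions and 5.2% of other peaks (difference 9.8 points, 6.2 to 14.0). Without it the shares were 7.7% and 4.7%, with an interval of the difference that includes 0 (-1.0 to 9.1).

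**Figure D2:**
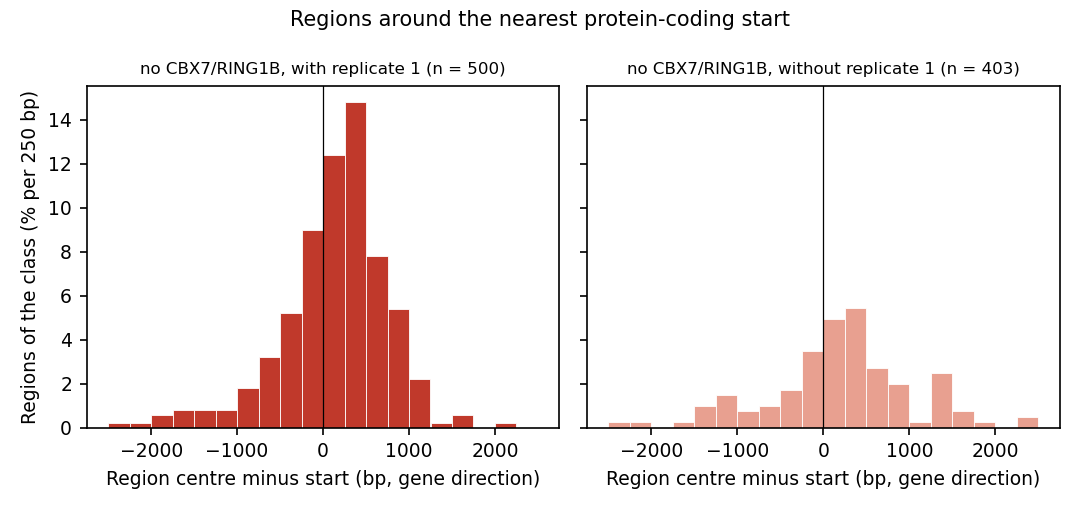
Distance in bp from the nearest protein-coding start to the region centre, positive in the direction of the gene, in bins of 250 bp. Bars give the share of all regions of the class (%), with replicate 1 at left (n = 500) and without at right (n = 403). Both classes peak just downstream of the start, and the bars are taller with replicate 1, where 340 of 500 regions are near such a start against 130 of 403.

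CpG content followed the same split. It was measured in the central 500 bp as the count of CG dinucleotides over that expected from the C and G content, where 1 means no depletion. The median was 0.50 in the regions (95% order-statistic interval 0.48 to 0.53, n = 903), 0.67 in the other replicate 2 peaks (0.67 to 0.68, n = 4200) and 0.15 in 25554 windows spaced every 100 kb along the genome. With a replicate 1 peak the regions had a median of 0.62 (0.58 to 0.64), and without it 0.40 (0.37 to 0.44). A ratio above 0.6 was found in 52.6% and 19.4% of these classes, a difference of 33.2 points (27.2 to 38.9), and in 1.0% of the genome windows.

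The split was also read near and away from starts. Near a start the median ratio was 0.67 with replicate 1 (0.64 to 0.70, n = 355) and 0.50 without (0.45 to 0.55, n = 147). Away from starts it was 0.40 with (0.36 to 0.47, n = 145) and 0.33 without (0.30 to 0.37, n = 256), and these intervals overlap. A ratio above 0.6 was found near starts in 63.7% (58.5 to 68.5) with and 35.4% (28.1 to 43.4) without replicate 1, and away from them in 25.5% (19.1 to 33.2) and 10.2% (7.0 to 14.5), where neither pair of intervals overlaps. The lowest of these 4 medians was still above the upper quartile of the genome windows, 0.24. GC content was 54.8% with replicate 1, 48.2% without and 41.6% in the genome windows, by medians. Within score bands the ratio of the regions was 0.45, 0.54 and 0.56 and that of the other peaks 0.60, 0.64 and 0.69.

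**Figure D3:**
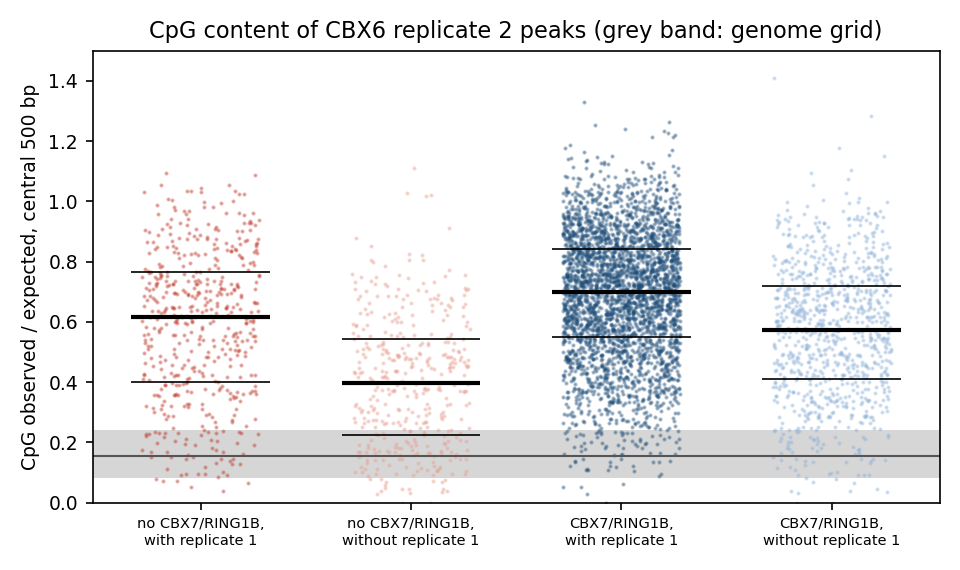
CpG observed over expected (vertical axis, no unit) in the central 500 bp of each CBX6 replicate 2 peak, 1 point per peak, in 4 classes. The thick line is the median and the thin lines the quartiles. The grey band is the interquartile range of 25554 genome windows, with its median of 0.15. Regions without replicate 1, median 0.40, sit lowest, and peaks with CBX7 or RING1B and replicate 1 highest, at 0.70.

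The letters of 12 short motifs were searched in the central 500 bp on both strands. The ETS box CCGGAAGT, the site of a large family of activating factors, was in 19 of 500 regions with replicate 1 (3.8%, 2.4 to 5.9), 6 of 403 without (1.5%, 0.7 to 3.2), 20 of 3276 other peaks with replicate 1 (0.61%) and 0.33% of genome windows. Near a protein-coding start it was in 17 of 340 regions with replicate 1 (5.0%) and in 6.5% of 9628 replicate 1 peaks that had no replicate 2 peak. Windows around starts of genes at 1 FPKM or more held it in 10.1% of 10159 cases, and those of genes under 1 FPKM in 1.6%. Regions with replicate 1 near a protein-coding start thus lay between these gene classes, while the peaks with CBX7 or RING1B were below both. The windows are unlike, since those of genes are centred on the start and those of peaks on the peak centre. The ETS boxes of 6 regions, at the nearest genes with the highest expression, are shown with 10 bases on either side and the box in capitals.
Prdx1, chr4:116358675-116358702 (+ strand): ttctcagcggCCGGAAGTcgcttttccg
H2-Ke2, chr17:34077265-34077292 (+ strand): atcaataaacCCGGAAGTaaacaaggca
Calu, chr6:29298109-29298136 (- strand): caccgcccaaCCGGAAGTggttaatggc
Cd164, chr10:41239801-41239828 (+ strand): cgaaacttctCCGGAAGTttctaatgaa
Dcun1d5, chr9:7184493-7184520 (- strand): tggctctggaCCGGAAGTgacgtagaaa
Snupn, chr9:56798642-56798669 (+ strand): gtaggcggagCCGGAAGTtcgagtgcaa
All 6 lay in regions with a replicate 1 peak, and a match is a description of letters, not of a bound factor.

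The T-box TCACACCT was likewise in 16 of 500 regions with replicate 1 (3.2%, 2.0 to 5.1) and in 47 of 3276 other peaks with replicate 1 (1.4%, 1.1 to 1.9), beside 9 of 403 regions without it and 1.9% of genome windows. The SP/KLF box GGGCGGG was in 22.8% of regions with replicate 1 (19.3 to 26.7), in 10.2% without (7.6 to 13.5), in 32.6% of other peaks with replicate 1 and in 2.3% of genome windows. It was more frequent still, 57.7%, around starts of genes at 1 FPKM or more. The E2F6 box TTCCCGC, the site of a factor that recruits the noncanonical complex PRC1.6, was in 10.0% of regions with replicate 1, 4.2% without, 11.9% of other peaks with replicate 1 and 0.96% of genome windows, beside 14.4% of windows around starts of genes at 1 FPKM or more. The E-box CACGTG was in 9.4%, 8.2%, 9.2%, 4.9% and 13.6% of these classes in that order. The NRF1 core GCGCATGCG was in 6 of 500 regions with replicate 1 and 0 of 403 without, where a count of 0 allows up to 0.94% by the Wilson interval, and in 0.067% of genome windows and 4.2% of those around starts of genes at 1 FPKM or more. With the same backgrounds, the YY1 core AAGATGGCG was in 4 and 1 regions (0.50% and 5.4%), the Kaiso core TCTCGCGA in 2 and 2 (0.035% and 2.9%), and the CTCF core AGGGGGCGC in 14 and 5 (0.098% and 2.9%). Part of the RE1 element, TTCAGCACC, was in 2 and 4 regions (0.41% and 0.68%). The POU octamer ATGCAAAT was in 10 and 12 regions, 2.0% and 3.0% of their classes, below the 4.5% of genome windows and above the 1.6% around those starts. The CCAAT box was in 39.4% and 41.2%, below the 56.8% of genome windows.

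Genes at the regions were expressed in ESCs more often than genes at the other CBX6 peaks. The deposited RNA values are FPKM, fragments per kilobase of transcript adjusted for library size, so levels can be set beside each other between genes. A gene counted as carrying a region when a start lay within 2500 bp, and 539 genes of the table did. Their median level in shCtl ESCs was 5.62 FPKM (95% interval 4.27 to 6.57), with 5.67 and 5.63 in the 2 libraries. Genes at other replicate 2 peaks and not at a region had a median of 0.20 FPKM (n = 2871), and all 21915 genes with coordinates 0.99 FPKM. A level under 1 FPKM was found for 140 of 539 genes at regions (26.0%, 22.4 to 29.8), for 71.9% of genes at other peaks, a difference of -45.9 points (-49.8 to -41.7), and for 50.0% of all genes.

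The level also differed with replicate 1. Genes whose region had a replicate 1 peak had a median of 7.13 FPKM (5.98 to 8.84, n = 399), and 19.8% were under 1 FPKM. All 11847 genes with a replicate 1 peak at a start had a median of 6.15 FPKM (5.83 to 6.46), an interval that overlaps the former. Genes at regions without it had a median of 1.70 FPKM (0.75 to 2.87, n = 140), and 43.6% were under 1 FPKM, a difference of 23.8 points. Some of these genes also had a CBX7 or RING1B peak elsewhere within 2500 bp of a start, and these 74 had a median of 1.47 FPKM. Without them the median of the 465 others was 6.42 FPKM, with 8.48 where the region had replicate 1 and 2.16 where it had not.

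Across expression classes the regions with replicate 1 were most frequent above 1 FPKM and the other CBX6 replicate 2 peaks below it. A region with replicate 1 lay at a start of 0.14% of 4900 genes listed at 0 in both shCtl libraries, 1.2% of those above 0 and under 1 FPKM, 3.0% of those at 1 to under 10, 3.0% at 10 to under 100 and 2.3% (1.5 to 3.5) at 100 or more. Other replicate 2 peaks were at 6.6%, 29.2%, 14.0%, 2.5% and 1.1% of the same classes. Regions without replicate 1 stayed between 0.12% and 0.94%, with no rise above 1 FPKM. Replicate 1 peaks of any kind were at 10.0%, 47.5%, 73.2%, 80.9% and 80.9%.

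Replicate 1 had peaks at most starts of expressed genes, which is the background for its presence at the regions. Of all genes at 1 FPKM or more, 77.4% had a replicate 1 peak within 2500 bp of a start (76.6 to 78.2), and of those carrying a region 91.7% did (366 of 399, 88.6 to 94.1). Of genes under 1 FPKM the shares were 30.8% (29.9 to 31.6) and 67.9% (95 of 140, 59.7 to 75.03). In both classes the intervals did not overlap, so genes with a region carried replicate 1 peaks more often than genes of the same class as a whole.

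**Figure D4:**
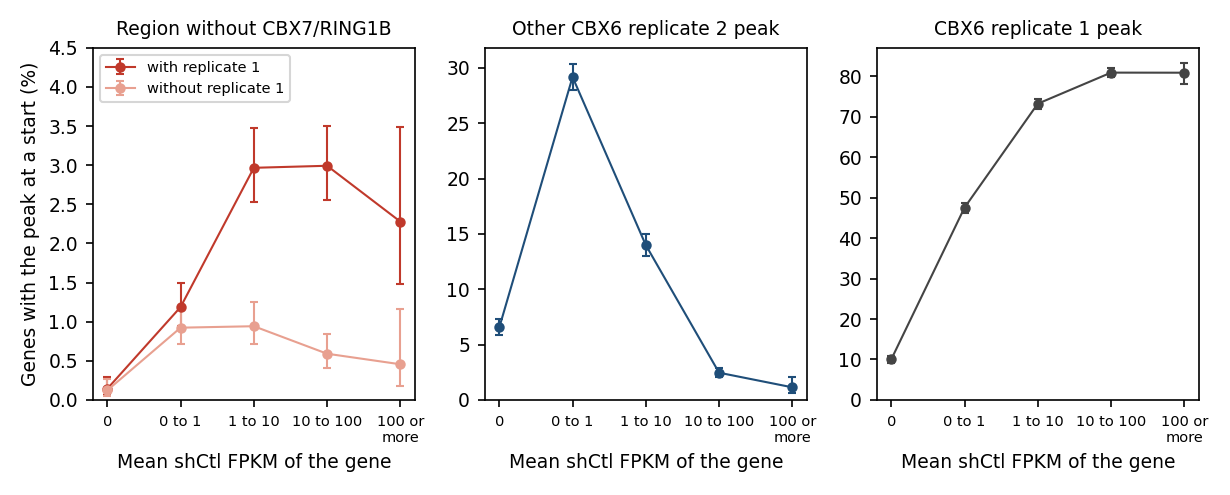
Share of genes (vertical axis, %) with a peak within 2500 bp of a start, by mean shCtl FPKM (horizontal axis), with 95% Wilson intervals. Left, regions without CBX7 or RING1B, with and without replicate 1; middle, other CBX6 replicate 2 peaks; right, CBX6 replicate 1 peaks. The scales differ between panels. Regions with replicate 1 rise to 3.0% above 1 FPKM, while other replicate 2 peaks go from 6.6% of genes at 0 to 29.2% of those above 0 and under 1 FPKM and 1.1% at 100 FPKM or more.

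The 5 most highly expressed genes at regions all carried a replicate 1 peak. Rps18, encoding a protein of the small ribosomal subunit, had 4002 and 4533 FPKM in shCtl and 4825 and 4279 in shCbx6, and its region was at chr17:34092494-34093198. Rps2, of the same subunit, had 2549 and 3452, and 3259.6 and 3766 FPKM. The antioxidant enzyme gene Prdx1 had 1139 and 1456, and 1256 and 1359.5 FPKM. In each of these genes the groups overlapped between conditions. Tuba1b had 908.5 and 990.2 FPKM in shCtl and 978.2 and 1171 in shCbx6, and Gpx4 382.3 and 525.7, and 434.7 and 475.4. Their region scores in replicate 2 were 52.4, 72.1, 65.7, 55.3 and 56.5, from Rps18 to Gpx4, near the lowest score of the list, and their replicate 1 scores were 379.8, 94.2, 146.8, 287.0 and 531.6. None of these starts carried a CBX7 or RING1B peak.

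Of 165 measured genes on 10 lists, 8 carried a region (4.8%), beside 2.46% of all 21915 genes. The lists were chosen with earlier results of these data known, so this contrast is a description only. Of 16 ribosomal protein genes, 2 carried one, Rps2 and Rps18, while 13 carried a replicate 1 peak. Among 16 pluripotency genes only Dppa3, a maternal factor of the early embryo and of naive ESCs, carried a region, and all 16 carried a replicate 1 peak. Of 27 PRC1 and PRC2 subunit genes it was Bmi1, which encodes a PCGF subunit of canonical PRC1, and its start also had CBX7, RING1B and another CBX6 peak. The region of Dkk1, a secreted WNT inhibitor and the only one of 13 WNT target genes, also stood beside CBX7 and RING1B peaks. Ier3, an early response gene, was 1 of 13 MAPK feedback genes, Cdkn1a, a cell cycle inhibitor, 1 of 16 cell cycle genes and Gusb, a lysosomal enzyme gene, 1 of 12 housekeeping genes. None of 19 measured genes for developmental regulators had a region, while all 19 had another replicate 2 peak, and none of 19 PRC1.6 germline genes or 14 synaptic genes had one. The 4 lists of cell type markers also had none.

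The knockdown was then examined at these genes. The targeted gene Cbx6 had 17.4 and 14.9 FPKM with shCtl and 9.53 and 5.40 FPKM with shCbx6. Both shCbx6 values were below both shCtl values, and replicate 1 kept more Cbx6 than replicate 2. The mean was 7.46 ± 2.92 FPKM in shCbx6 and 16.1 ± 1.80 in shCtl (SD, n = 2 each), 2.16-fold lower, with an adjusted p of 0.25 by limma that did not pass the test. Cbx7 had 76.2 and 69.9 FPKM in shCtl and 84.8 and 61.1 in shCbx6, which overlap. Rnf2, the gene of RING1B, had 55.3 and 58.9, and 43.9 and 45.2 FPKM, which did not overlap, with an adjusted p of 0.41.

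No gene at a region passed the test in the main fit of the knockdown, which had no replicate term. By limma on log2(FPKM + 1), fitted on the 11592 genes whose shCtl or shCbx6 mean reached 1 FPKM, 0 of 410 tested genes at regions passed an adjusted p of 0.05, beside 11 of all tested genes (0.0949%). At an unadjusted p under 0.05 there were 54 of 410 (13.2%) and 1352 of all (11.7%). By the ratio of group means, 36 genes at regions were at least 1.5-fold higher in shCbx6 (8.8%), beside 7.63% of all tested genes, and 26 at least 1.5-fold lower (6.3%), beside 6.56%. The groups did not overlap for 30 of the 36 and for all 26, that is 7.3% and 6.3% of the tested genes at regions, beside 6.36% and 5.92% of all tested genes. These ratios carry no test. Without shCbx6 replicate 1, the knockdown library with more Cbx6 left, limma called 15 genes at regions, beside 398 of all genes, and 69 genes were 1.5-fold higher (16.55% of those tested, beside 12.1% of all). Without shCbx6 replicate 2 it called 1, Dppa3, beside 35 of all genes, and 16 genes were 1.5-fold higher (3.9%, beside 5.5% of all). In these fits the lone shCbx6 library is assumed to vary like the shCtl libraries, which alone give the spread. With all libraries and the replicate number as a block, limma called 11 genes at regions, Dppa3 among them, beside 388 of all genes. The numbers are not stated to pair the libraries. With 2 libraries a group the smallest p that a two-sided exact permutation test can give is 0.33.

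Of the 36 higher genes at regions, 13 had a CBX7 or RING1B peak elsewhere at a start and 23 had none, but the share of higher genes was larger in the first class. Of 48 tested genes at a region that also had a CBX7 or RING1B peak within 2500 bp of a start, 13 were 1.5-fold higher (27.1%) and 8 lower (16.7%). Of the 362 without such a peak, 23 were higher (6.4%) and 18 lower (5.0%), a difference in the higher share of 20.7 points (9.8 to 34.8). Genes at the other replicate 2 peaks, without a region, had 27.7% higher and 14.5% lower of 961 tested. With replicate 1 at the region, 7.9% of 328 tested genes were higher and 5.8% lower, and without it 12.2% and 8.5% of 82, with intervals of the difference that include 0 (-13.4 to 2.2 and -11.1 to 2.6 points, with minus without).

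The shares were also read by level. Under a mean of 10 FPKM, 12.6% of 206 genes at regions were 1.5-fold higher, as were 12.6% of all 5545 tested genes of that level. At 10 FPKM or more it was 4.9% of 204 (2.7 to 8.8) and 3.1% of 6047. The lower shares were 10.7% and 2.0% at regions and 9.9% and 3.5% of all genes. In every case the interval of the regions held the share of all genes of that level.

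The largest ratio upward was that of Dppa3. It had 2.36 and 2.19 FPKM with shCtl and 27.0 and 57.1 FPKM with shCbx6, an 18.5-fold higher mean and a log2(FPKM + 1) difference of 3.62 (SE 0.349, adjusted p = 0.073 by limma). Both shCbx6 values were far above both shCtl values. Its region, chr6:122576968-122578502, lay inside the gene with its centre in an intron, had a replicate 2 score of 105.7, no replicate 1 peak and a CpG ratio of 0.50, and no CBX7 or RING1B peak was at the start.

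Among the 30 higher genes whose groups did not overlap, the next ratios upward were those of Wnt8a, Fzd2, Cldn6 and Mycn. None of these genes passed the test in the main fit, while Fzd2, Cldn6 and Mycn did with the replicate block. Wnt8a had 0.23 and 0.045 FPKM in shCtl and 1.105 and 1.61 in shCbx6. Fzd2, a WNT receptor gene, had 0.56 and 0.93, then 2.75 and 4.74 FPKM. Cldn6, an embryonic tight junction gene, had 7.42 and 15.3, then 28.7 and 81.4 FPKM. These 3 genes were 9.87-fold, 5.00-fold and 4.85-fold higher by the means. Wnt8a and Fzd2 were under 1 FPKM in shCtl and reached the filter only through shCbx6, so their ratios rest on a low base. Mycn, a MYC family gene, had 20.0 and 18.2 FPKM in shCtl and 54.3 and 87.0 in shCbx6, 3.70-fold higher, with a log2 difference of 1.80 (SE 0.246, adjusted p = 0.10 by limma). Fzd2 also had CBX7, RING1B and another CBX6 peak at its start, and Cldn6 a CBX7 peak. Wnt8a and Mycn had a replicate 1 peak on the region and neither CBX7 nor RING1B.

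The largest ratios downward, also among genes without overlap, were at genes of low level. None passed the test in the main fit, while Ablim1 and Itga9 did with the replicate block. Pdyn, an opioid precursor gene, had 1.502 and 2.14 FPKM in shCtl and 0.41 and 0.15 in shCbx6. Ablim1, an actin-binding protein gene, had 3.23 and 3.74, then 0.83 and 0.77 FPKM, with a log2 difference of -1.32 (SE 0.170, adjusted p = 0.094 by limma). Il12rb2, an interleukin receptor gene, had 1.33 and 1.23, then 0.50 and 0.22 FPKM. These 3 genes were all under 4 FPKM in every library. Itga9, an integrin gene, had 6.37 and 5.01, then 3.02 and 1.502 FPKM, and Ccdc141 2.03 and 1.44, then 1.28 and 0.33. The means of the 5 genes were 6.56-fold, 4.37-fold, 3.56-fold, 2.52-fold and 2.14-fold lower in this order. Pdyn, Ablim1, Il12rb2 and Ccdc141 had means under 1 FPKM in shCbx6 and reached the filter only through shCtl. Pdyn and Itga9 had replicate 1 on the region, Ablim1 had RING1B and Ccdc141 had CBX7 at a start.

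**Figure D5:**
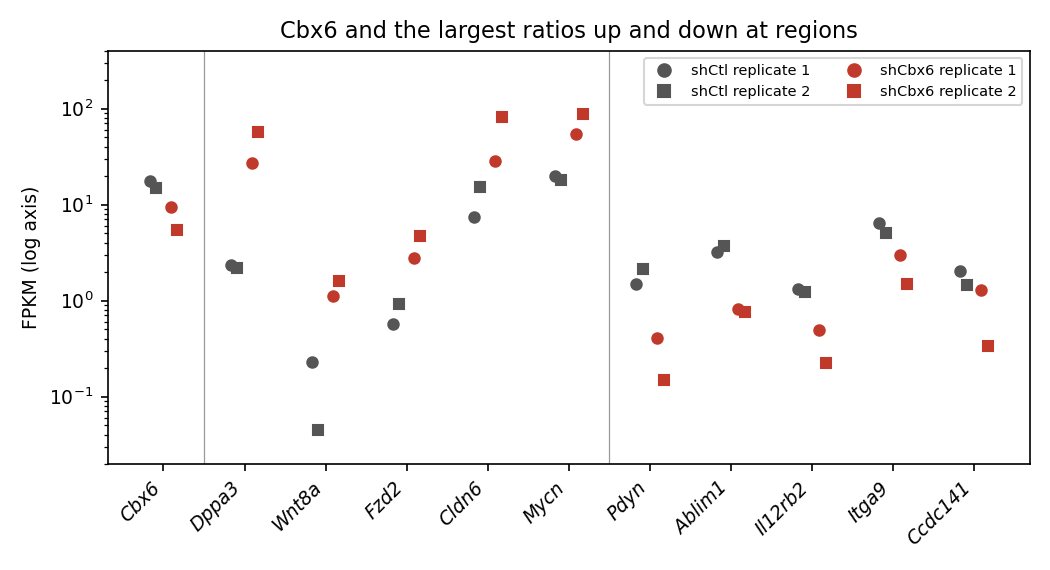
FPKM in each library (vertical axis, log scale) for Cbx6 and for the 5 largest ratios upward and 5 largest downward among genes at regions, chosen among genes without overlap between groups, shCtl in grey and shCbx6 in red, replicate 1 as circles and replicate 2 as squares. The red square is farther from the grey points than the red circle in each gene, for Ablim1 only slightly.

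The listed genes other than Dppa3 overlapped between groups or, as Gusb and Bmi1, did not overlap but stayed under 1.5-fold. Gusb had 5.91 and 6.99 FPKM in shCtl and 8.12 and 10.5 in shCbx6 (adjusted p = 0.41 by limma). Bmi1 had 1.94 and 1.39, then 1.19 and 1.08 FPKM, without overlap (adjusted p = 0.61 by limma). Ier3 had 3.85 and 4.38, then 3.78 and 11.8 FPKM, and Cdkn1a 10.6 and 14.7, then 10.6 and 20.2. For Ier3 and Cdkn1a shCbx6 replicate 1 lay at the level of shCtl and only replicate 2 was higher. Dkk1 stayed between 0.03 and 0.16 FPKM in all libraries and was not tested.

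Markers of ESCs and of other cells were set beside these values, and none of those tested passed. Tested were all 6 ESC, 4 of 6 trophectoderm, 1 of 8 fibroblast and 1 of 6 primitive endoderm markers. The 6 ESC markers were all expressed, and their levels summed to 6991 and 8019 FPKM with shCtl and 6487 and 5492.5 FPKM with shCbx6. Dppa5a made up most of each sum, at 4580 and 5397, then 4544 and 3600.5 FPKM. The 6 did not all move alike. Nanog, a pluripotency factor gene, had 320.7 and 358.7, then 203.5 and 191.6 FPKM (adjusted p = 0.19 by limma). Sox2 overlapped between groups, at 132.9 and 151.8, then 159.9 and 140.5 FPKM (adjusted p = 0.90 by limma). The 6 trophectoderm markers summed to 7.76 and 9.70, then 20.4 and 139.3 FPKM, where Krt8, a keratin gene, had 4.81 and 7.25, then 12.1 and 118.8, and Krt7 0.022 and 0.15, then 0.55 and 9.02. Tfap2c, a transcription factor gene, had 2.84 and 2.21, then 7.41 and 9.04 FPKM (adjusted p = 0.090 by limma), while Cdx2, Elf5 and Hand1 were at most at 0.511, 0.053 and 1.80 FPKM. Cdx2 and Elf5 were below the filter on low FPKM, and none of the other 4 passed the test. Each of the 6 was higher in both shCbx6 libraries than in both shCtl libraries, and none of these 6 was at 0 in all libraries. Cdx2, Elf5, Krt7 and Hand1 were under 1 FPKM in both shCtl libraries. The share of all genes higher without overlap at any ratio was not computed. Of all tested genes, 6.36% were at least 1.5-fold higher without overlap. The 8 fibroblast markers summed to 2.29 and 2.33, then 1.71 and 5.39 FPKM, with Lum at 0 throughout, and the 6 primitive endoderm markers to 2.13 and 1.94, then 1.84 and 2.72 FPKM. Of the lists of other cells, only the trophectoderm sum did not overlap between groups. Sums hide single members, and some fibroblast and primitive endoderm markers did not overlap either, in both directions and mostly below the filter. The part of other cells in the changes at regions was not tested. In bulk RNA, fewer cells of a type and less RNA per cell cannot be told apart.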

How the data were processed

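The authors aligned ChIP-seq reads to mm9 with Bowtie, kept reads that map to 1 place and called peaks in each sample with MACS (default settings, shift size 75 bp); the score is the deposited MACS value, and tool versions and the control of each call are not given in the sources used here. For RNA-seq the authors used TopHat and Cufflinks, and the deposited table gives FPKM per gene symbol. Keeping uniquely mapping reads leaves repeats and near-identical genes with no or lower values. The anti-HA and IgG control samples were not used here.

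The regions are the CBX6 replicate 2 peaks that share 0 bp with CBX7 and RING1B peaks. Members, lists and motifs were chosen with earlier results of these data known. Starts, gene names and bases came from GENCODE vM1 and its NCBIM37 genome, whose chromosome lengths fit the peaks; 21149 symbols were found under their own name and 766 under a synonym. Of 23290 entries, 23 that read as dates matched no gene. A start counted within 2500 bp. Shares have 95% Wilson intervals and differences Newcombe intervals, for counting error only.

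Expression was compared by the ratio of mean FPKM (1.5-fold) and by limma 3.58.1 (R 4.3.3) on log2(FPKM + 1), a scale that understates changes of low genes, on genes whose shCtl or shCbx6 mean reached 1 FPKM, with a trend, no replicate term and Benjamini-Hochberg adjustment over all 11592 genes. The step was tested on simulated data. Python 3.11.15 was used otherwise. Named are the 6 highest-scoring regions with and without replicate 1, the regions nearest to and farthest from CBX7 or RING1B, the 5 most expressed genes at regions, the 5 largest ratios up and down without overlap, and genes of 10 lists and 4 marker lists that carry a region. Alternatives covered the distance to CBX7 and RING1B, the score, the overlap, the window, the filter, the pseudocount, the replicate block and each RNA library. Sequences to print were chosen among regions outside chromosome 18 and the mitochondrial genome.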

Additional observations from a re-analysis of the deposited data

How the results depend on the processing

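The share with replicate 1, the share near a start and the CpG ratio stayed within their intervals when regions within 1000 or 5000 bp of a CBX7 or RING1B peak were left out. With regions of a score of at least 100 (n = 107) they were 60.7%, 59.8% and 0.56, the median of genes at starts was 3.78 FPKM, and 6 genes were 1.5-fold higher and 5 lower. An overlap of at least 50% gave 50.9% with replicate 1, a window of 1000 bp gave 49.3% near a start, and whole regions a CpG ratio of 0.48. The median FPKM was 5.998 and 6.19 without regions within 1000 and 5000 bp of CBX7 or RING1B, 5.98 with starts within 1000 bp, 4.01 for regions from 2500 bp upstream to the transcription end, and 5.63 to 5.67 without either shCtl library. Genes without a CBX7 or RING1B peak at a start, an alternative chosen after seeing the data, had 6.42 FPKM, with 23 genes higher and 18 lower.

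In the knockdown, 82 genes were higher and 43 lower with no filter on low FPKM (15.4% and 8.1%, beside 20.1% and 12.7% of all genes), and 42 lower with regions up to the transcription end (8.3%, beside 6.56%). Limma called 1 gene at a region, Dppa3, with a pseudocount of 0.1. With the replicate number as a block it called 11 (388 of all genes), and 18 genes were 1.5-fold higher and 14 lower in both same-numbered pairs (4.4% and 3.4%, beside 4.6% and 4.1% of all genes). The numbers are not stated to pair the libraries, and same-numbered deviations correlated at 0.27 across genes. Leaving out a library gave 0 to 15 calls, 16 to 69 higher and 28 to 38 lower genes. The 15 calls, with 69 higher genes, came without shCbx6 replicate 1 (398 of all genes), and 1 call, again Dppa3, with 16 higher genes without shCbx6 replicate 2. The cause of these shifts was not tested. Other alternatives left the counts within 1.5 times. Depth is unknown for the peak lists and the FPKM table.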
